A study of Mus musculus with 19 samples.

Results

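The CDK inhibitors and the retinoblastoma family are the genes through which a myoblast leaves the cell cycle before it becomes a muscle fibre. The 10 genes described here were listed by name and not by a threshold on their values, though earlier results of these data were known: the Cip/Kip inhibitors Cdkn1a (p21), Cdkn1b (p27) and Cdkn1c (p57), the INK4 inhibitors Cdkn2a (p16Ink4a and p19Arf), Cdkn2b (p15), Cdkn2c (p18) and Cdkn2d (p19), and the pocket proteins Rb1 (pRB), Rbl1 (p107) and Rbl2 (p130). They are 10 of the 35598 genes measured by RNA sequencing in cultured mouse muscle cells, and all 10 passed the filter on low counts that left 15123 genes for testing. Their levels are given as CPM, counts scaled to a common library total and for RNA composition, which compares 1 gene across libraries. TPM values, which divide by transcript length but are not scaled for RNA composition, are used to compare genes with each other and for sums over families.

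The cells were primary myoblasts from mouse hind-limb muscle, labelled either WT or Glud1KO. Glud1 encodes glutamate dehydrogenase, a mitochondrial enzyme that interconverts glutamate and 2-oxoglutarate. Libraries were made from proliferating myoblasts after 24 h in growth medium (3 WT, 3 Glud1KO), from differentiated myotubes at 48 h (3 WT, 2 Glud1KO) and from fused myotubes at 72 h (4 WT, 4 Glud1KO). The deletion strategy, the age of the mice and the number of animals behind the cultures are not given in the sources used here. The replicates are labelled biological, but nothing says that they came from separate animals, so the p-values measure the spread between these libraries.

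The targeted gene was checked first, and its RNA did not separate the labels. Glud1 stood at 189 ± 4.16 CPM in WT and 187 ± 2.69 in Glud1KO myoblasts (SD, n = 3 and 3), at 106 ± 5.23 and 99.8 ± 4.48 in differentiated cells (n = 3 and 2), and at 135 ± 4.49 and 133 ± 3.82 in fused cells (n = 4 and 4). None of the 3 differences was called. The names of the deposited files also mark both groups as knockouts, with a letter T added for a single group. What the T stands for is not given in the sources used here. The groups are therefore called WT and KO-labelled after the sample labels, and every direction between them rests on those labels.

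The 19 libraries held between 16168131 and 30742634 estimated counts. Differences between members are called where the adjusted p-value of edgeR's quasi-likelihood test (Benjamini-Hochberg over all genes tested) was under 0.05, and replicates varied with a biological coefficient of variation of 4.03%. On the first principal component (77.7% of variance), the 2 KO-labelled differentiated libraries lay at 61.2 and 61.8, between the WT differentiated libraries (33.9 to 37.5) and the WT fused libraries (89.3 to 90.6). Markers of myogenic cells summed to 1543 to 1865 CPM in myoblasts and to 7782 to 8879 CPM in later libraries. The 3 pericyte markers summed to 33.1 to 43.2 CPM in myoblasts, nearly all from Rgs5, and to 167 to 181 CPM in fused cells, nearly all from Abcc9, a channel subunit that muscle fibres express too, while Kcnj8 reached at most 0.0668 CPM and was 0 in all later libraries. The leukocyte markers summed to 1.15 to 1.92 CPM in myoblasts, 15.5 to 28.0 in differentiated and 8.49 to 10.3 in fused cells, mostly Itgam at the later stages. The part of either list in the stage differences was not tested. The summed fibroblast markers reached at most 3.53 CPM, with Dpt at 0 in every library, the endothelial ones 1.253, the Schwann cell ones 2.70 and the adipocyte ones 0.0704. In bulk RNA, a change in the number of cells that express a gene and a change in RNA per cell cannot be told apart, and stage cannot be told apart from time in culture.

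Cyclin-dependent kinases drive the cell cycle by phosphorylating pocket proteins, which then release the E2F transcription factors that switch on genes for DNA replication and mitosis. INK4 proteins bind CDK4 and CDK6 and block their pairing with D cyclins, while Cip/Kip proteins bind whole cyclin-CDK complexes and chiefly restrain CDK2. In skeletal muscle, p21 and p57 act redundantly in withdrawing myoblasts from the cell cycle, and pRB keeps differentiated myotubes from re-entering S phase.

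Sequences before the transcription starts are shown for 3 members chosen after their values were seen: Rbl1, which had the largest decrease of the 10 at the first step, the separate p19Arf and p16Ink4a starts of Cdkn2a, whose transcripts fell to different degrees, and the inner start of Cdkn2c, whose transcript rose while the longer one fell. They come from RefSeq on GRCm38.p6, cover up to 250 bases before the start and leave out annotated exons of the same gene. All lie on the minus strand and are written 5′ to 3′ along the gene, with matches to the E2F or E-box motifs in capitals.
Rbl1, chr2:157204535-157204784: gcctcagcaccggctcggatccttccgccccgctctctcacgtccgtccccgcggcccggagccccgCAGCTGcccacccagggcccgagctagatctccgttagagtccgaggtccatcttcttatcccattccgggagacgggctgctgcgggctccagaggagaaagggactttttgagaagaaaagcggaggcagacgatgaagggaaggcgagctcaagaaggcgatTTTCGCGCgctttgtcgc
Cdkn2a, p19Arf start, chr4:89294654-89294869: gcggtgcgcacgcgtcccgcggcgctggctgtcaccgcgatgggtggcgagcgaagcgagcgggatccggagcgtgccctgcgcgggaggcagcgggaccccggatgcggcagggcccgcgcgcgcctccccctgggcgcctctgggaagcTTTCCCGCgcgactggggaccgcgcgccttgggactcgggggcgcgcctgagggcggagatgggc
Cdkn2a, p16Ink4a start, chr4:89282193-89282442: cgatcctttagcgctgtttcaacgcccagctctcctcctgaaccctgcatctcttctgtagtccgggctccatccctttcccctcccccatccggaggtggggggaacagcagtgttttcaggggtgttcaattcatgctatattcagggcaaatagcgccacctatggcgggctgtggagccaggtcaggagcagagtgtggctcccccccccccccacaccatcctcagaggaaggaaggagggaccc
Cdkn2c, inner start, chr4:109665373-109665609: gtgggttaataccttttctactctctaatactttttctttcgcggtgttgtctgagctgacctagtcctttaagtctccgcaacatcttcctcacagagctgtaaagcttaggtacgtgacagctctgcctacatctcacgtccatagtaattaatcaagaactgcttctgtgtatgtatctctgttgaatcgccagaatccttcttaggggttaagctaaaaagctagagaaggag

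The Rbl1 sequence holds TTTCGCGC, 18 bases before the start, and CAGCTG, 183 bases before it. The p19Arf sequence holds TTTCCCGC, 99 bases before the RefSeq start at chr4:89294619. That start lies inside the first exon of Cdkn2a-202 (chr4:89294334-89294653), so the printed sequence stops short of it. The p16Ink4a and inner Cdkn2c sequences hold none of the motifs searched. The search covered 250 bases before to 50 bases after each start on both strands for E2F motifs (TTTCCCGC, TTTGGCGC, TTTCGCGC or TTTGCCGC), the CHR (TTTGAA) and the E-boxes CAGCTG and CACCTG. RefSeq entries matched 8 of the 10 members with 11 starts; Cdkn1c and Rb1 had none. Of 32851 promoters of this length, 2.26% held an E2F motif, 17.9% the CHR, 16.3% CAGCTG and 20.2% CACCTG, so only the E2F letters were rare. Elsewhere among the members, Cdkn1a held CAGCTG after 1 start and CACCTG before the other, and Cdkn2b and Rbl2 held the CHR on the minus strand of the gene. A match describes letters in a window and is no measurement of binding.

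Cdkn1a, the p21 gene (chr17:29090976-29100727, plus strand, GRCm38), dominated the inhibitors at every stage and rose further with differentiation. It measured 531, 503 and 520 CPM in the WT myoblast libraries (replicates 1 to 3), 3017, 3020.4 and 3190 CPM in the differentiated ones, and 3640, 3792, 3913 and 3996 CPM in the fused ones (replicates 1 to 4). All differentiated libraries lay above all myoblast libraries, and all fused libraries above both. Differentiated cells held 5.94 times the myoblast level (log2 2.57, SE 0.0465, adjusted p = 1.4e-26), and fused cells 1.25 times the differentiated level (log2 0.32, SE 0.0411, adjusted p = 1.01e-07). KO-labelled libraries ran from 461 to 474 CPM in myoblasts, from 3188 to 3428 in differentiated cells and from 3761 to 3941 in fused cells.

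Cdkn1b, the p27 gene (chr6:134920401-134925513, plus strand), changed late. It stood at 30.6, 31.1 and 30.1 CPM in WT myoblasts, at 34.8, 33.0 and 35.8 in differentiated cells, and at 72.2, 73.1, 61.5 and 63.9 in fused cells. The step to differentiated cells was small (1.13-fold, log2 0.18, SE 0.0598, adjusted p = 0.00833), and with library size alone as the scaling it turned to a log2 difference of -0.076, where the median of all genes lay at -0.231. It was also no longer called without the filter on low counts (log2 0.11, adjusted p = 0.0964). The step to fused cells was 1.96-fold (log2 0.97, SE 0.054, adjusted p = 5.16e-15), with no overlap of the groups. KO-labelled cells followed the same course in values, at 31.2 to 33.8, 37.1 to 39.4 and 65.7 to 71.4 CPM.

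Cdkn1c, the p57 gene (chr7:143458339-143461050, minus strand), was the scarcest inhibitor and was highest at 48 h. WT myoblast libraries held 0.738, 0.778 and 0.702 CPM, which is 18 to 21 counts each. Differentiated libraries held 8.20, 7.01 and 8.31 CPM and fused libraries 3.33, 3.363, 3.27 and 3.01 CPM, so the 3 stages did not overlap. The rise was 10.6-fold (log2 3.40, SE 0.152, adjusted p = 1.3e-17), and fused cells then held 2.43 times less (log2 -1.28, SE 0.114, adjusted p = 1.1e-10). The same order held in KO-labelled cells, with 0.602 to 0.72 CPM, then 7.06 and 6.29, then 3.00 to 4.09. The gene Gm44732 lies antisense to Cdkn1c, and whether counting used strand is not given in the sources used here.

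**Figure D1:**
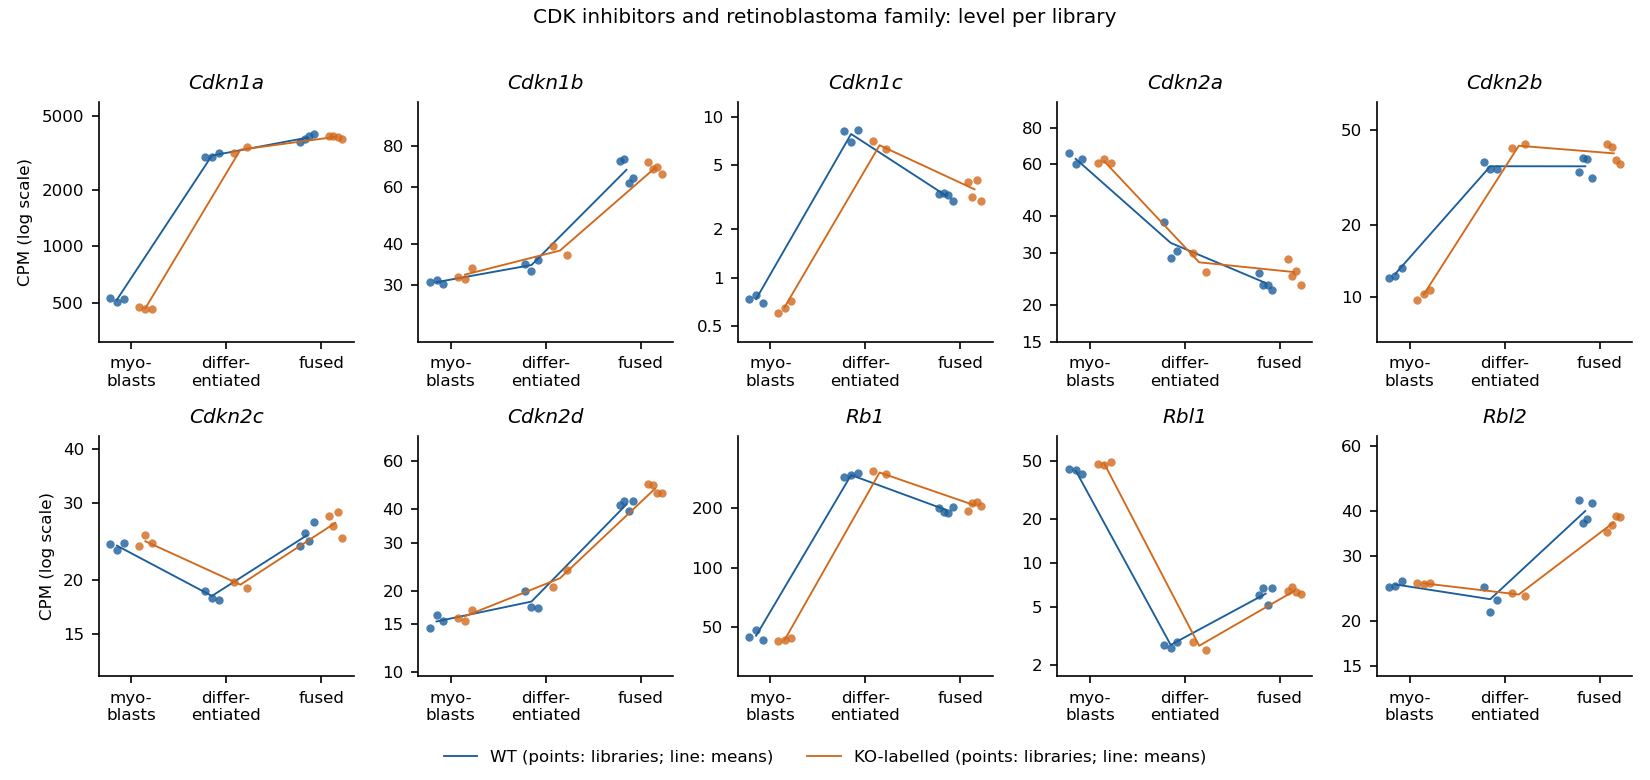
Level of each of the 10 members in every library, in CPM on a log scale, by stage; blue points are WT and orange points KO-labelled libraries, and lines join group means. Cdkn1a, Cdkn2b and Rb1 rose and Rbl1 and Cdkn2a fell at the step from myoblasts to differentiated cells, while Cdkn1b, Cdkn2d and Rbl2 rose mainly at the step to fused cells.

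Among the INK4 genes, Cdkn2a and Cdkn2b, neighbours on chromosome 4, moved in opposite directions. Cdkn2a (chr4:89274471-89294653, minus strand) stood at 65.4, 60.3 and 62.4 CPM in WT myoblasts, at 38.2, 28.8 and 30.4 in differentiated cells and at 25.7, 23.4, 23.4 and 22.5 in fused cells. No library of a later stage reached the lowest library of the stage before it. The decrease to differentiated cells was 1.94-fold (log2 -0.96, SE 0.0718, adjusted p = 1.49e-12) and the next one 1.36-fold (log2 -0.45, SE 0.0768, adjusted p = 9.61e-06). In KO-labelled cells Cdkn2a fell to 29.9 and 25.9 CPM in differentiated cells from 60.8 to 62.8 CPM in myoblasts (log2 -1.14), and the second step was not called (log2 -0.11, adjusted p = 0.295, fused libraries at 23.4 to 28.7 CPM).

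Cdkn2b, whose p15 protein is known as a mediator of TGF-beta arrest (chr4:89306299-89311039, minus strand), stood at 12.1, 12.3 and 13.2 CPM in WT myoblasts. It measured 36.9, 34.4 and 34.4 CPM in differentiated cells and 33.5, 38.0, 37.9 and 31.6 in fused cells. It rose at the first step only: this step was 2.81-fold (log2 1.49, SE 0.0768, adjusted p = 3.34e-16), and the groups of the second step overlapped (log2 -0.009, SE 0.0653, adjusted p = 0.909). KO-labelled libraries held 9.74, 10.3 and 10.7 CPM, then 42.1 and 43.8, then 43.7, 42.6, 37.3 and 36.1. Their first step was 4.20-fold (log2 2.07). The second exons of Cdkn2a and Cdkn2b are similar in sequence, so how kallisto split shared reads between the pair could move both values.

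Cdkn2c (chr4:109660876-109667189, minus strand), which acts in muscle precursors and other differentiating cells, changed little in sum. It dipped from 24.2, 23.4 and 24.4 CPM in WT myoblasts to 18.9, 18.2 and 18.0 in differentiated cells (log2 -0.39, SE 0.0581, adjusted p = 8.08e-07). It then rose to 23.9, 25.7, 24.5 and 27.2 CPM in fused cells (1.38-fold, log2 0.47, SE 0.0564, adjusted p = 2.98e-08), a range that overlapped the myoblasts. Counted with an offset for effective length, the dip became a log2 difference of 0.07, since the offset divides by a length that changed with the transcripts present. KO-labelled libraries held 23.9 to 25.4, 19.2 and 19.8, and 25.0 to 28.7 CPM.

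Cdkn2d (chr9:21288410-21291407, minus strand) was a late gene like Cdkn1b. WT libraries held 14.5, 16.2 and 15.4 CPM in myoblasts, 19.97, 17.4 and 17.3 in differentiated cells and 41.3, 42.6, 39.4 and 42.9 in fused cells. The first step was 1.18-fold (log2 0.24, SE 0.0698, adjusted p = 0.00251), and with library size alone it turned to -0.011 against the same median of all genes as for Cdkn1b. The second was 2.29-fold (log2 1.2, SE 0.0606, adjusted p = 6.45e-16), with every fused library above every differentiated one. KO-labelled libraries held 15.4 to 17.0, 20.6 and 23.8, and 45.7 to 49.6 CPM, and with library size alone their first step was not called (log2 0.16, adjusted p = 0.0655).

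The transcripts of Cdkn2a and Cdkn2c did not change together within each gene; these are descriptions from kallisto's split of reads, with no test. Cdkn2a-201 begins with exon 1 at chr4:89281986-89282192 and encodes p16Ink4a, an INK4 inhibitor, whereas Cdkn2a-202 begins at chr4:89294334-89294653 and encodes p19Arf, which restrains Mdm2 and so stabilises p53. They share 575 bases, of which 317 are coding in different frames. Cdkn2a-202 held 29.8, 28.3 and 28.6 CPM in WT myoblasts, 6.67, 3.92 and 6.81 in differentiated cells and 2.29, 3.26, 2.15 and 2.35 in fused cells. Its mean was 4.98 and 11.5 times lower than in myoblasts at the later stages, while that of Cdkn2a-201 was 1.27 and 1.59 times lower, from 33.8 to 26.7 and 21.2 CPM. The share of Cdkn2a-202 thus moved from 46.1% ± 0.724 (SD, n = 3) to 17.8% ± 4.42 (n = 3) and 10.6% ± 2.30 (n = 4). KO-labelled cells showed the same course, with mean shares of 49.5, 15.1 and 10.2%. The p19Arf start is the one with the E2F letters printed above.

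Cdkn2c had an exchange of transcripts under a sum of counts that was not called different between WT myoblasts and fused cells (log2 0.08, adjusted p = 0.162). That sum depends on length: with the effective-length offset it was higher in fused cells (log2 0.81, adjusted p = 3.03e-10), also in KO-labelled cells (0.89 in place of 0.15). In WT it was higher with a mean of at least 1 CPM as the filter too (0.12, adjusted p = 0.041) and lower with library size alone (-0.24, adjusted p = 0.000209). Cdkn2c-202, which starts with an extra exon of 1580 bases, went from 17.3 to 8.15 and 5.48 CPM in WT means, and Cdkn2c-201, from the inner start printed above, from 6.65 to 10.2 and 19.9 CPM. Both transcripts carry the same 504 coding bases. From myoblasts to fused cells Cdkn2c-202 was 3.16 times lower and Cdkn2c-201 was 2.98 times higher. The share of Cdkn2c-202 moved from 72.2 to 44.4 and 21.7% in WT and from 72.7 to 37.7 and 20.6% in KO-labelled cells. Cdkn1b-202, whose annotated transcript is 2159 bases longer than Cdkn1b-201, held a smaller share at each later stage in WT. Its share was 50.6% ± 6.9, 38.6% ± 2.0 and 26.1% ± 2.2 (SD, n = 3, 3 and 4), with its own level at 15.5, 13.3 and 17.6 CPM. Cdkn1b-201 went from 8.96 to 13.9 and 30.7 CPM and Cdkn1b-203 from 6.13 to 7.34 and 19.4. Cdkn1a-201 held 95.1 to 98.6% and Rb1-201 98.9 to 99.8% of their genes' counts as group means, so those genes showed no such exchange.

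**Figure D2:**
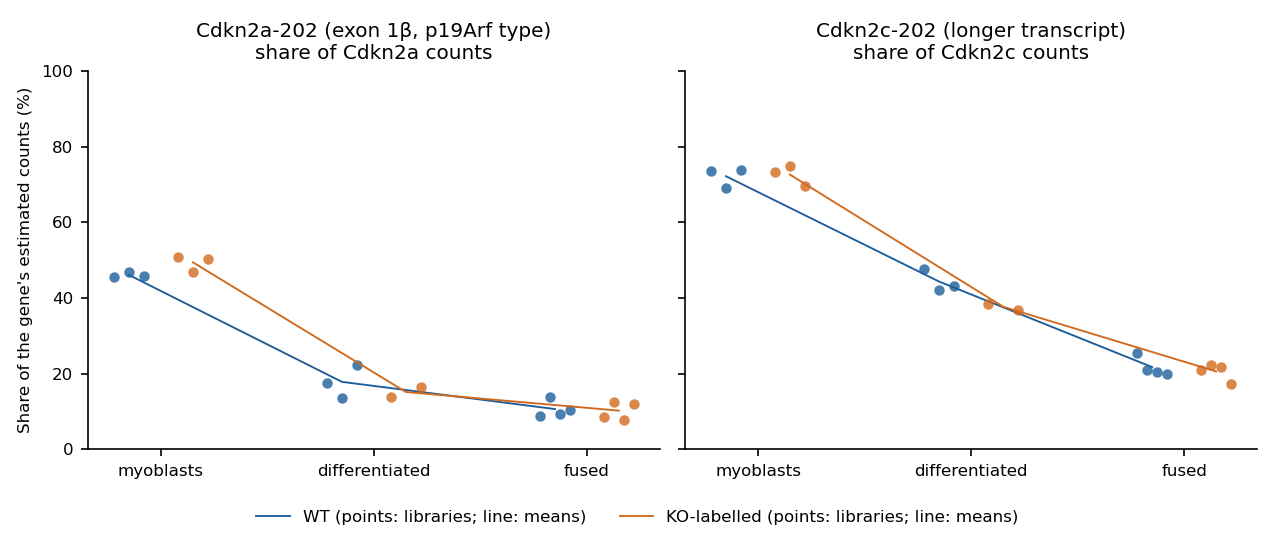
Share of estimated counts, in percent, that Cdkn2a-202 (the p19Arf transcript) held of Cdkn2a and Cdkn2c-202 (with the extra first exon) held of Cdkn2c, per library and stage; points are libraries, blue for WT and orange for KO-labelled. Both shares were lower at each later stage, from 46.1 to 10.6% and from 72.2 to 21.7% in WT means.

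The 3 pocket proteins changed places. Rb1 (chr14:73183673-73325822, minus strand) stood at 44.7, 48.4 and 43.1 CPM in WT myoblasts, at 287, 294 and 299 in differentiated cells and at 200.4, 192, 188 and 203 in fused cells. The rise was 6.48-fold (log2 2.70, SE 0.0467, adjusted p = 5.68e-27), and fused cells held 1.5 times less than differentiated cells (log2 -0.58, SE 0.0391, adjusted p = 2.79e-13), with no overlap at either step. Its KO-labelled libraries held 42.6 to 44.0, 296 and 309, and 194 to 216 CPM. Coding genes Rcbtb2 and Lpar6 overlap Rb1 on the opposite strand, so counting without strand could add their reads where exons coincide.

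Rbl1 (chr2:157145893-157204534, minus strand), whose p107 protein pairs with E2F4 and is itself an E2F target, went the other way. WT libraries held 43.9, 43.4 and 40.8 CPM in myoblasts, 2.75, 2.61 and 2.85 in differentiated cells and 6.03, 6.73, 5.12 and 6.68 in fused cells. Its level was 15.5 times lower in differentiated cells (log2 -3.96, SE 0.0789, adjusted p = 1.22e-25), the largest decrease among the members. It was 2.25 times higher in fused than in differentiated cells (log2 1.17, SE 0.104, adjusted p = 1.1e-10), still 6.91 times below myoblasts. KO-labelled libraries held 46.4 to 49.3, 2.52 and 2.89, and 6.13 to 6.84 CPM.

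Rbl2 (chr8:91070057-91123844, plus strand), the p130 gene typical of resting cells, rose at the step to fused cells. WT libraries held 24.8, 24.9 and 25.7 CPM in myoblasts, 24.8, 21.2 and 22.7 in differentiated cells and 42.8, 37.0, 37.9 and 42.1 in fused cells. The first step was a log2 difference of -0.14 (SE 0.0616, adjusted p = 0.0421) with overlapping groups, and it was not called in 10 of 27 alternatives, among them leaving out WT myoblast replicate 1, 2 or 3 (adjusted p = 0.0547, 0.0588 and 0.119) or WT differentiated replicate 2 or 3 (0.26 and 0.0979). The step to fused cells was 1.76-fold (log2 0.81, SE 0.0571, adjusted p = 7.65e-13) without overlap. KO-labelled cells held 25.2 to 25.4, 23.4 and 23.7, and 35.1 to 38.6 CPM. The coding gene Aktip overlaps Rbl2 on the opposite strand, with the same limit as for Rb1.

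**Figure D3:**
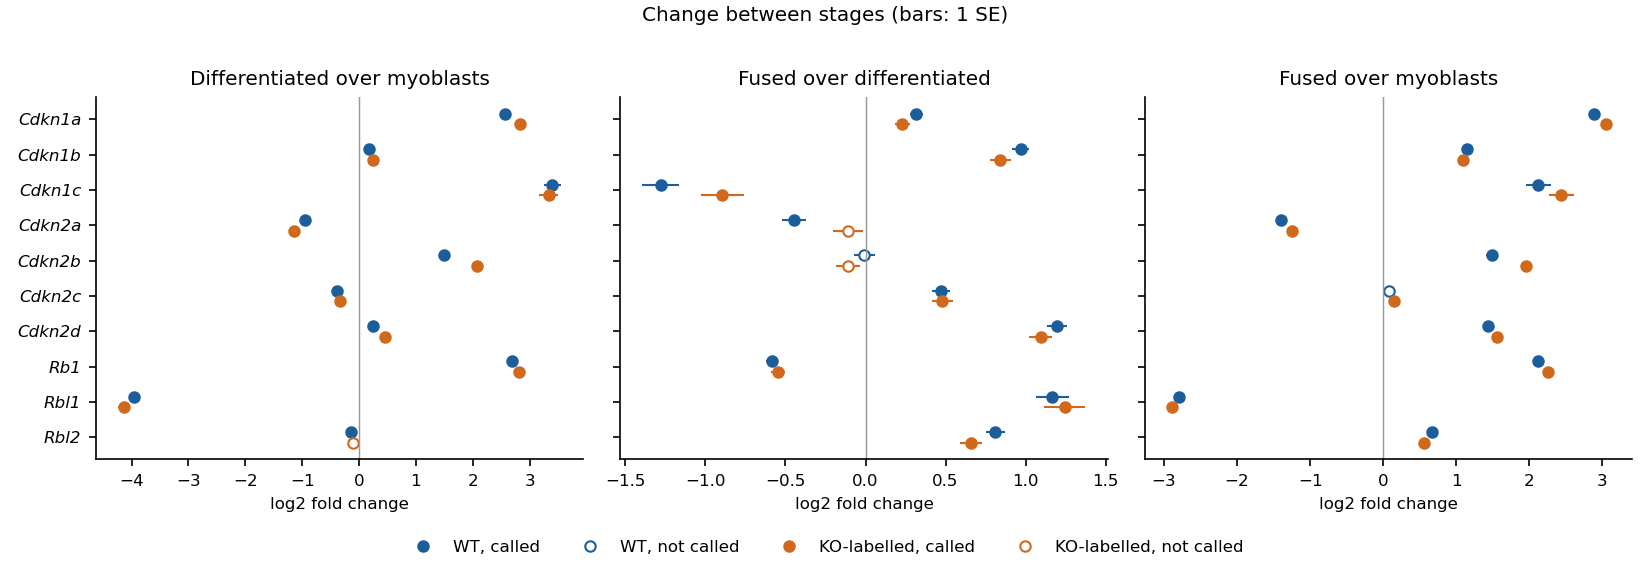
Log2 fold change of each member between stages (differentiated over myoblasts, fused over differentiated, fused over myoblasts), with bars of 1 SE; filled points were called and open points were not, for WT and KO-labelled cells. Rb1 and Rbl1 stood on opposite sides of 0 at both steps, at 2.70 and -3.96 in WT differentiated over myoblasts and at -0.58 and 1.17 in fused over differentiated.

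Counted over the family, 6 members were higher and 4 lower in WT differentiated cells than in myoblasts, where 85% of all genes tested were called (42.4% higher and 42.6% lower). From differentiated to fused WT cells 6 were higher and 3 lower, with 75.1% of all genes called (37.4 and 37.7%), and from myoblasts to fused cells 7 were higher and 2 lower, with 85.5% called (42.2 and 43.4%). Groups did not overlap in 85.1% of all genes at the first step and in 71.6% at the second. The shares of members called are thus near those of all genes, and the sizes are what describe the family. The members' median log2 difference was 0.21 in the first step, 0.39 in the second and 1.29 from myoblasts to fused cells, beside 0.02, -0.01 and -0.01 over all genes. The split of 6 and 4 was 4 and 4 with library size alone and 6 and 2 with the effective-length offset. In KO-labelled cells the counts were 6 higher and 3 lower (83.7% of all genes called, 41.3% higher and 42.5% lower), 6 and 2 (70.2%, 35.8 and 34.4%) and 8 and 2 (87.2%, 42.7 and 44.5%). The 8 include Cdkn2c, 0.15 higher on the log2 scale in fused cells than in myoblasts (adjusted p = 0.0114), which was not called without KO-labelled fused replicate 3 (adjusted p = 0.0546) or without the filter on low counts (0.207), and turned to -0.175 with library size alone.

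Per length, Cdkn1a and Rb1 held larger shares of their groups in differentiated and fused cells than in myoblasts. TPM is not scaled for RNA composition, for which the factors ran from 1.15 to 1.16 in WT myoblast and from 0.915 to 0.94 in WT fused libraries. The direction of a TPM sum between stages is therefore not read as a result. The CDK inhibitors together held 585 TPM in WT myoblasts, 2196 in differentiated and 2479 in fused cells as means. Cdkn1a made up 65.9, 92.1 and 92.0% of that. The INK4 genes held 177, 139 and 148 TPM in sum, counting the p19Arf transcript of Cdkn2a, which encodes no INK4 protein. Without that transcript the mean sum was 124 ± 0.278, 129 ± 11.04 and 144 ± 4.19 TPM (SD, n = 3, 3 and 4). Its differentiated libraries (120.5 to 141 TPM) overlapped both other groups, and the p16Ink4a transcript held 55.5, 38.4 and 25.45% of it. With it, Cdkn2a made up 68.9% of INK4 TPM in WT myoblasts and 27.5% in fused cells, where Cdkn2b held 24.9%, Cdkn2c 22.2% and Cdkn2d 25.5%. Among pocket proteins, Rb1 and Rbl1 held nearly equal shares of TPM in WT myoblasts (40.7 and 40.5%, Rbl2 18.8%), whereas Rb1 held 93.0% in differentiated and 82.6% in fused cells. Rbl1 held 1.05 and 2.91% there, and Rbl2 5.97 and 14.5%.

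**Figure D4:**
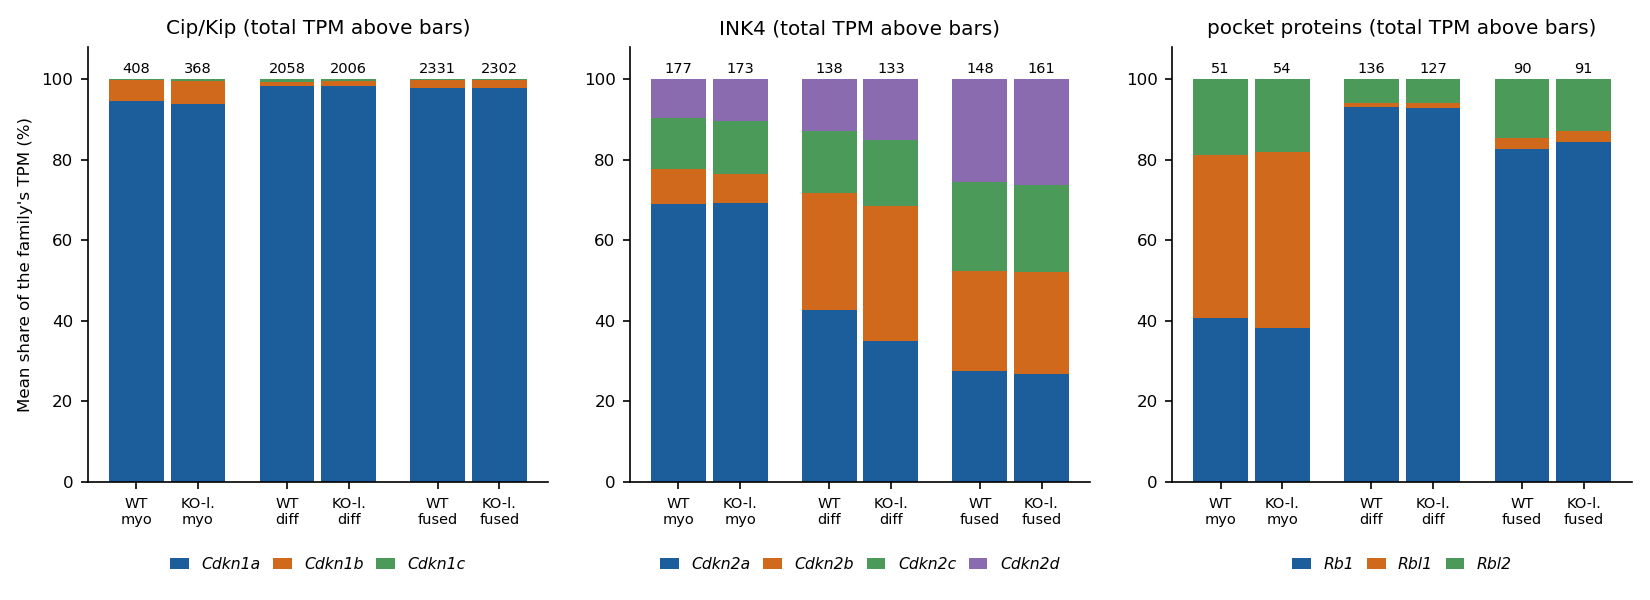
Stacked shares, in percent of mean TPM, of the Cip/Kip inhibitors, the INK4 inhibitors and the pocket proteins, by stage and label. The group's total TPM stands above each bar and is not scaled for RNA composition. Cdkn1a filled most of the Cip/Kip group at every stage (94.6, 98.3 and 97.8% in WT). Rb1 filled most of its group at the later stages, while the INK4 group went from mainly Cdkn2a to near-equal parts in fused cells.

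In order of TPM, WT myoblasts had Cdkn1a (386) and Cdkn2a (122) first, followed by Cdkn2c (22.4), Cdkn1b (21.0), Rb1 (21.0) and Rbl1 (20.9), whose neighbours overlapped. Cdkn2d (17.1) and Cdkn2b (15.6), which overlapped each other, and then Rbl2 (9.68) and Cdkn1c (1.13) came last. In WT differentiated cells no neighbours overlapped, and the order was Cdkn1a (2022), Rb1 (127), Cdkn2a (59.5), Cdkn2b (39.96), Cdkn1b (23.4), Cdkn2c (21.3), Cdkn2d (17.8), Cdkn1c (11.8), Rbl2 (8.13) and Rbl1 (1.43). In WT fused cells Cdkn1a (2280) and Rb1 (74.4) led, Cdkn1b (46.8), Cdkn2a (40.6), Cdkn2d (37.6), Cdkn2b (36.7) and Cdkn2c (32.7) overlapped with their neighbours, and Rbl2 (13.1), Cdkn1c (4.85) and Rbl1 (2.62) were lowest.

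Most D cyclins, cyclins E, A and B and their kinases, and most E2F genes, were lower in WT differentiated cells than in myoblasts, a step at which 42.4% of all genes were called higher and 42.6% lower. In WT cells, 4 of the 5 D cyclins and their partners were lower in differentiated cells than in myoblasts and 1 was higher (median log2 -2.28, beside 0.02 over all genes). Ccnd1, cyclin D1, went from 1182 to 43.4 CPM (log2 -4.77), and Cdk6 from 153 to 22.6 (log2 -2.76). Of 7 genes for cyclins E, A and B and their partners, 6 were lower and 1 higher (median -5.19), led by Ccna2 (log2 -5.87, 146 to 2.43 CPM) and Ccnb1 (-5.84). The E2F family had 2 higher and 7 lower of 10 (median -1.11): the atypical repressor E2f7 fell (log2 -5.11), and E2f2 rose from 22.7 to 127 CPM (log2 2.48). All 3 further brakes on CDK1 and CDK2 fell, so they moved with the kinases and against Cdkn1a (Cdkn3 -5.12, Wee1 -3.10).

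Genes that activate CDKs had 2 higher and 4 lower of 6 at this step (median -1.02), with the phosphatases Cdc25c at -5.20 and Cdc25b at -2.40. Of 4 genes of p27 turnover, 2 were lower and 2 higher: Cks1b (-3.42) and Skp2 (-2.44), which mark p27 for destruction, fell, while Cdkn1b RNA stayed nearly level. The MuvB core, which binds p107 or p130 in resting cells and B-Myb in cycling cells, had with B-Myb 1 higher and 3 lower of 6 (median -0.34), led by Mybl2 (-5.22) and Lin9 (-2.45).

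At the step from WT differentiated to fused cells, where 37.4% of all genes were called higher and 37.7% lower, the lists differed in their counts. The D cyclin list had 4 lower and 1 higher (Cdk6 -2.27, Ccnd1 -2.12), the cyclin E, A and B list 6 lower and 1 higher, and the E2F list 7 lower and 2 higher (E2f7 -1.93, E2f4 -1.10). Ccna2 (-3.40) and Ccnb1 (-3.39) were down to 2 to 8 counts per fused library. Mybl2 was down to 0 to 3 counts, and no fold is given for it. CDK activators had 4 lower and 2 higher (Cdc25b -1.55, Cdc25c -0.82), p27 turnover 3 lower and 1 higher (Skp2 -1.45, Cks1b -1.003), the MuvB list 2 each way (Lin37 0.77) and the brakes 1 lower (Pkmyt1 -2.26). Cdc25c, at 3 to 8 counts per fused library, was not called without any 1 of the 3 WT differentiated libraries or without fused replicate 1 or 3 (adjusted p from 0.0532 to 0.0989), nor with no filter on low counts (0.061).

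Across the 19 libraries, the genes most like each member were sought by Pearson r of log2 CPM among 10200 genes with a mean of at least 5 CPM. The libraries fall into 6 groups of 3 stages, so r mostly follows the stages, and it is given with no test. Cdkn1a was most like Arl6ip5, Cacna1s and Casq2 (each 0.9995), the latter pair encoding muscle calcium-handling proteins. Cdkn1c was most like Wnt9a (0.9935), Jph2 (0.9933) and Myog (0.9913), the gene for myogenin. For Rb1 the nearest were Mtcl1 (0.9987), Herc3 (0.9981) and Patj (0.9977), and for Rbl1 the chromatin proteins Hmgb1 (0.9964) and Hmga1 (0.9963) and the purine enzyme gene Paics (0.9961).

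Cdkn2d was nearest to Sdhb (0.9927) and Sdhd (0.9921), subunits of respiratory complex II, and Acaa2 (0.9911), an enzyme of fatty acid oxidation. Cdkn1b was nearest to Enpp4 (0.9923), Pptc7 (0.992) and Sobp (0.9915), Cdkn2b to H2-K1 (0.994), Nol3 (0.9929) and Nkiras2 (0.9919), and Cdkn2a to Mex3d (0.9918), Stard3nl (0.991) and Foxc2 (0.9907). Rbl2 (Zfyve9 0.9798, Pcmtd1 0.9769, Tstd3 0.9767) and Cdkn2c (Fam69b 0.9737, Ptpn3 0.9596, Gypc 0.9585) had the least close matches. Between members, r was -0.991 for Rb1 and Rbl1, 0.986 for Cdkn1b and Cdkn2d, 0.983 for Cdkn1a and Cdkn2b and -0.014 for Cdkn2a and Cdkn2c.

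No member differed between the labels by more than 1.22-fold in a called comparison. In proliferating myoblasts 1 member was higher and 2 were lower in KO-labelled than in WT libraries, where 11.6% of all genes tested were called (4.86% higher and 6.69% lower). Cdkn1a was 1.11 times lower (466 ± 6.66 against 518 ± 14.4 CPM, SD, n = 3 each, log2 -0.15, SE 0.0443, adjusted p = 0.0241), and Cdkn2b 1.22 times lower (10.3 ± 0.498 against 12.5 ± 0.588 CPM, log2 -0.29, SE 0.0872, adjusted p = 0.0295). Rbl1 was 1.12 times higher (47.7 ± 1.44 against 42.7 ± 1.70 CPM, log2 0.16, SE 0.0507, adjusted p = 0.0375). All 3 had groups that did not overlap, as did 33% of all genes. The summed proliferation markers Mki67 and Top2a stood at 634 to 649 CPM in KO-labelled and 576 to 620.4 CPM in WT myoblasts, and the pericyte markers at 33.1 to 36.0 and 38.6 to 43.2 CPM, with Rgs5 called lower (log2 -0.25, adjusted p = 0.0147). The part of either in these differences was not tested.

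These 3 calls were close to the threshold. With the effective-length offset none was called (Cdkn1a adjusted p = 0.0518, Cdkn2b 0.101, Rbl1 0.374). Cdkn1a was not called without WT myoblast replicate 1 (0.0986) or 3 (0.0751) or KO-labelled myoblast replicate 2 (0.0789) or 3 (0.0861), nor Cdkn2b without WT replicate 2 (0.0544) or 3 (0.149) or KO-labelled replicate 1 (0.125) or 2 (0.0693). Rbl1 lost its call without any 1 of the 6 myoblast libraries (WT replicates 1, 2 and 3 gave 0.0522, 0.0703 and 0.207, and KO-labelled ones 0.0937, 0.0574 and 0.165). It also lost it with DESeq2 size factors (0.0736), library size alone (0.0503), no filter (0.0705), the replicate block (0.0533) and DESeq2's test (0.159), so in 12 of 27 alternatives in all. The other 7 members were not called in myoblasts, with log2 differences between -0.16 and 0.08.

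In differentiated cells 2 members were higher and none lower in KO-labelled libraries, where 25.2% of all genes were called (11% higher and 14.1% lower). Cdkn2b stood at 42.1 and 43.8 CPM against 36.9, 34.4 and 34.4 in WT (1.22-fold, log2 0.29, SE 0.0765, adjusted p = 0.00627). Cdkn2d stood at 20.6 and 23.8 CPM against 19.97, 17.4 and 17.3 (1.22-fold, log2 0.29, SE 0.0781, adjusted p = 0.00648). Neither pair of groups overlapped, as was so for 46.5% of all genes. Without KO-labelled differentiated replicate 2, which leaves 1 library assumed to vary like the other groups, neither was called (Cdkn2b log2 0.26, adjusted p = 0.0755, Cdkn2d 0.18, adjusted p = 0.22). Cdkn2a was not called (log2 -0.21, adjusted p = 0.091) but was without WT differentiated replicate 2 (log2 -0.29, adjusted p = 0.0239), with library size alone (-0.27, 0.0435), with no filter (-0.22, 0.0183) and with the replicate block (-0.23, 0.0256). Cdkn1a was not called by edgeR (0.10, adjusted p = 0.121) but was by DESeq2 (0.12, adjusted p = 0.0212). Cdkn1b (0.15, 0.124), Cdkn1c (-0.23, 0.188) and Rb1 (0.04, 0.557) were not called.

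Several values moved together with the label at this stage. Mki67 and Top2a summed to 2.15 and 2.19 CPM in the KO-labelled differentiated libraries and to 10.2 to 13.7 in WT, and these libraries lay 61.2 and 61.8 along the first principal component against 33.9 to 37.5 in WT, a shift in the direction of fused cells. On the second (14.9% of variance) they lay at -80.7 and -82.6, by the WT differentiated libraries (-74.0 to -81.5) and away from the WT fused ones (33.4 to 41.9). Cdkn2d is higher in fused than in differentiated cells in both labels, whereas Cdkn2b differed little between these stages in WT (35.3 and 35.2 CPM). The summed leukocyte markers were 24.3 to 28.0 CPM in KO-labelled and 15.5 to 18.5 in WT differentiated libraries, nearly all from Itgam, while Ptprc, Adgre1 and Csf1r reached at most 0.305, 0.0535 and 0.106 CPM. The part of position on these components or of other cells in the label difference was not tested.

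In fused cells 2 members were higher and none lower in KO-labelled libraries, where 13% of all genes were called (6.32% higher and 6.72% lower). Cdkn2b stood at 43.7, 42.6, 37.3 and 36.1 CPM against 33.5, 38.0, 37.9 and 31.6 in WT, with overlap (1.14-fold, log2 0.19, SE 0.0618, adjusted p = 0.0439). Cdkn2d stood at 49.6, 48.8, 45.7 and 45.8 CPM against 41.3, 42.6, 39.4 and 42.9, without overlap (1.14-fold, log2 0.19, SE 0.0512, adjusted p = 0.0139), as in 15.8% of all genes. Cdkn2b was not called without fused WT replicate 1 (0.136) or 4 (0.191), fused KO-labelled replicate 1 (0.171) or 2 (0.16), or the myoblast replicates 2 of WT (0.0505) and KO-labelled cells (0.0527), which enter through the shared estimate of spread. It was also not called with library size alone (0.053), the effective-length offset (0.16), only the groups compared in the fit (0.0712) or DESeq2's test (0.0543), so in 10 of 27 alternatives in all. Cdkn2d was not called without fused KO-labelled replicate 1 (0.0529) or 2 (0.0515), or with the effective-length offset (0.0851). Rb1 (0.08, adjusted p = 0.188) and Rbl2 (-0.11, 0.183) were not called.

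**Figure D5:**
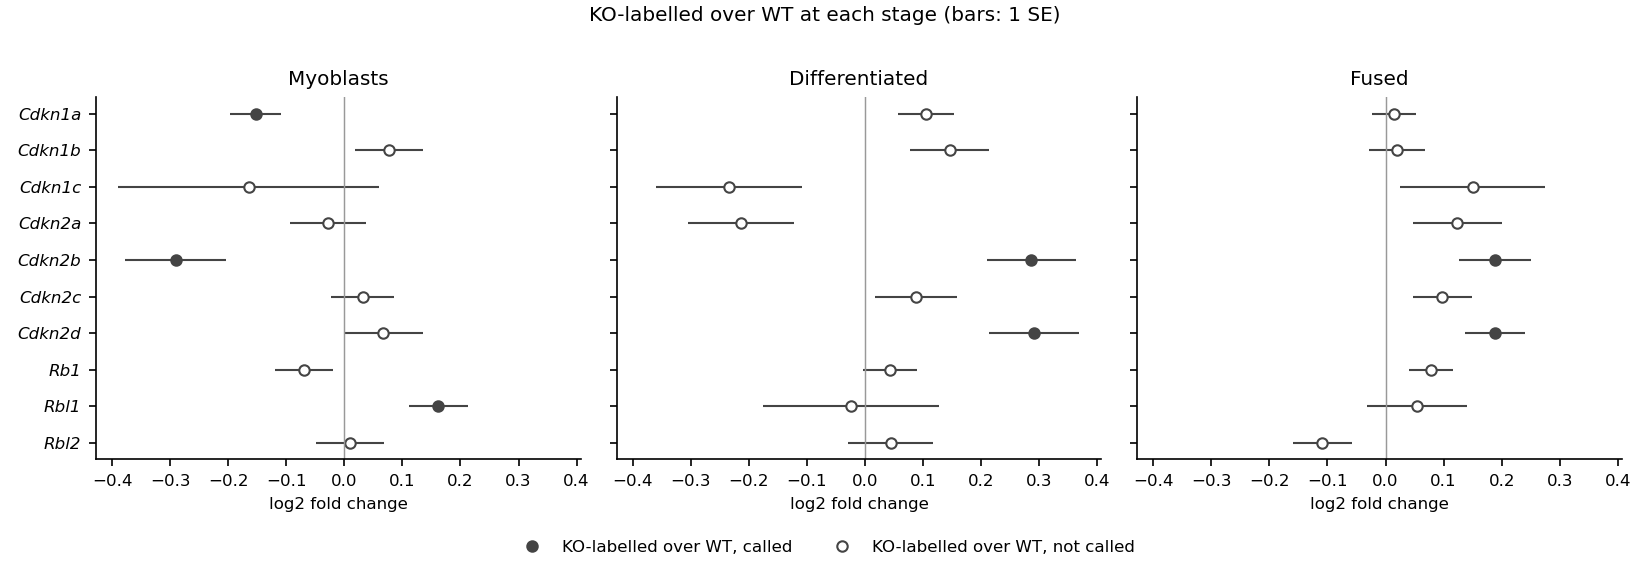
Log2 fold change of each member in KO-labelled over WT libraries in myoblasts, differentiated and fused cells, with bars of 1 SE; filled points were called. Cdkn2b lay below 0 in myoblasts (-0.29) and above 0 in differentiated (0.29) and fused cells (0.19), and Cdkn2d was called in differentiated and fused cells (0.29 and 0.19).

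Whether the label difference changed between stages was tested directly. From myoblasts to differentiated cells it changed for Cdkn2b (by 0.58 on the log2 scale, SE 0.116, adjusted p = 0.000676) and Cdkn1a (by 0.26, SE 0.0658, adjusted p = 0.00616), both upward, where 19.1% of all genes were called (7.78% upward and 11.3% downward). From myoblasts to fused cells it changed for Cdkn2b (by 0.48, SE 0.107, adjusted p = 0.00387), with 10.3% of all genes called (5.75% upward and 4.55% downward). Cdkn1a was called there in 4 alternatives: without fused WT replicate 4 (0.19, adjusted p = 0.0421), with DESeq2 size factors (0.0401), with library size alone (0.0266) and by DESeq2 (0.00345). Between differentiated and fused cells, 14.8% of all genes (8.27% upward and 6.53% downward) and no member were called, and Cdkn1c and Cdkn2a had an unadjusted p under 0.05. Cdkn2a (0.34, adjusted p = 0.0573) was close to the threshold and was called in 9 of 27 alternatives: DESeq2's test (adjusted p = 0.047), edgeR with library size alone (0.0382), no filter (0.00462) or the replicate block (0.0155), and edgeR without WT differentiated replicate 2 (0.0176) or 3 (0.0399), fused WT replicate 1 (0.0397), KO-labelled differentiated replicate 1 (0.0418) or KO-labelled fused replicate 4 (0.0359). Cdkn1a was no longer called without KO-labelled differentiated replicate 2 (0.20, adjusted p = 0.0713). Over all genes, the share of upward calls moved with the scaling. Between myoblasts and differentiated cells it went from 40.7% to 50.8% (DESeq2 size factors), 52.4% (DESeq2's test) or 26.3% (library size alone). Between differentiated and fused cells it went from 55.9% to 75% (library size alone) or 65.6% (effective-length offset). Between myoblasts and fused cells it went from 55.8% to 65.9% (DESeq2 size factors or test) or 66.8% (effective-length offset). These contrasts share libraries with the comparisons above and are no separate evidence.

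Some of the cyclins and kinases that these inhibitors bind also differed between the labels, in numbers that varied by stage. KO-labelled differentiated cells, where 11% of all genes were called higher and 14.1% lower, had 4 of the 5 D cyclins and partners lower: Ccnd1 stood at 11.5 CPM against 43.4 in WT (log2 -1.92, adjusted p = 8.13e-14) and Cdk6 at a log2 difference of -0.83. Of the cyclin E, A and B list 3 were lower and 1 higher (Ccnb1 -1.47, Ccna2 -1.06), of the E2F family 2 lower and 4 higher (E2f7 -1.14, E2f8 0.32), and of the CDK activators 1 lower and 2 higher (Cdc25b -0.77, Cdc25a 0.27). Skp2 (-0.32) and Cks1b (-0.51) were the 2 lower genes of p27 turnover, Mybl2 (-1.08) the only one called of its list, also lower, and no brake was called. Leaving out either KO-labelled differentiated library ended the calls of Cdc25a, E2f7, Cks1b and Skp2, and leaving out the first also ended that of Mybl2. So did leaving out WT differentiated replicate 1 for E2f7 and Cks1b, replicate 3 for Mybl2, and replicate 2 or 3 for Skp2 (adjusted p from 0.0503 to 0.209 in these fits). With the effective-length offset E2f7 stood at -0.068 (adjusted p = 0.95) and Cdc25a at 0.099 (0.716), and Mybl2 (0.0626) and Skp2 (0.0889) were not called. With only the groups compared in the fit, Cdc25a (0.0504), E2f7 (0.054), Mybl2 (0.0517) and Skp2 (0.0877) were not called, nor was Skp2 with no filter (0.0549) or by DESeq2 (0.0616).

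In myoblasts, where 4.86% of all genes were called higher and 6.69% lower, 6 of the 7 genes of the cyclin E, A and B list were higher in KO-labelled libraries (Ccne2 0.32, Ccne1 0.26), but 1 with the effective-length offset. Skp2 was higher (log2 0.29, adjusted p = 0.000147) and Ccnd3 lower (-0.23), and the E2F family had 3 higher and 1 lower (E2f7 0.23, Tfdp1 0.19), while Cdc25c (0.21) and Lin9 (0.26) were the 1 gene called in each of their lists. Leaving out replicate 2 or 3 of either label ended the call of E2f7, and replicate 1 or 3 of either that of Lin9. Ccne1 was not called after dropping WT replicate 3 or the first KO-labelled one, nor Cdc25c after dropping any 1 of the 6 myoblast libraries or fused KO-labelled replicate 2 (adjusted p from 0.0512 to 0.188 in these fits). With the effective-length offset only Skp2 and Ccnd3 of those named kept their calls. Cdc25c was not called in 13 of 27 alternatives in all, and Lin9 was not called by DESeq2 (adjusted p = 0.103).

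In fused cells, where 6.32% of all genes were called higher and 6.72% lower, Ccnd1 was higher in KO-labelled libraries (13.2 against 10.03 CPM, log2 0.42, adjusted p = 0.0028), the reverse of its direction at 48 h, and Cul1 was lower (-0.12). Ccne2 (0.42), E2f1 (0.27) and E2f8 (0.23) were also higher. The E2F family had 2 higher and 1 lower of 10 (median -0.03, beside -0.006 over all genes), the D cyclin list and the cyclin E, A and B list 1 higher each, and p27 turnover 1 lower. E2f1 lost its call in 17 of 27 alternatives. Left-out libraries that ended a call were fused WT replicates 1, 3 and 4 and KO-labelled replicates 1, 2 and 3 for Ccne2, KO-labelled replicate 3 for E2f8, and 11 libraries for E2f1, namely all 6 of myoblasts, fused WT replicates 1 and 4 and fused KO-labelled replicates 1, 2 and 4 (adjusted p from 0.0511 to 0.244). With the effective-length offset Ccne2 (0.077), E2f1 (0.094), E2f8 (0.0534) and Cul1 (0.112) were not called, nor was Ccne2 with only the groups compared in the fit (0.0864). The remaining lists had no gene called.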

How the data were processed

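RNA from 19 cultures was sequenced from TruSeq mRNA libraries, per the labels' protocols. The deposited tables give, per transcript, an estimated count, a TPM value and an effective length; per the submitters' processing notes, bcl2fastq 2.20, fastp 0.20.0, kallisto 0.46.1, edgeR 3.36 and GRCm38.p6 were used, with roles, strand and filters not given in the sources used here. kallisto's estimated counts, as deposited, share ambiguous reads between transcripts; TPM values, as deposited by the authors, divide by effective length.

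Of 121843 transcripts, 121018 matched GENCODE M21; the 825 others held 0.255 to 0.507% of counts and were left out. Estimated counts were summed per gene and rounded. Genes passing filterByExpr (15123 of 35598) entered 1 edgeR 4.0.16 quasi-likelihood fit in R 4.3.3 of all 19 libraries with 6 group coefficients, TMM scaling and 12 contrasts; a call is an adjusted p under 0.05 (Benjamini-Hochberg). The SE is the log2 fold change over the root of F. TPM per gene was used to compare levels between members and for sums and shares of families, without scaling for RNA composition. Replicate pairs differed beyond counting noise (chi-square per degree of freedom 2.14 to 7.66), and each library counted once. This does not show that the libraries came from separate animals. Counts were simulated for KO-labelled against WT myoblasts over 15123 genes, with 50 genes changed per size. Of these, 31 were recovered at 1.25-fold, 35 at 1.5, 37 at 2 and 44 at 4. The simulation gave every gene the same biological coefficient of variation (4.03%), so recovery in the real data can differ.

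The members and lists were chosen with earlier results of these data known. Named genes are all members, the 2 most changed called genes of each list, the 3 genes most like each member by r, and transcripts with at least 10% of a member's counts. Alternatives were 8 changes of scaling (DESeq2 1.42.0 size factors, library size), test (DESeq2), filter, length offset, libraries or block, and 19 fits without 1 library; those for list genes were added after seeing the data. Totals of 16168131 to 30742634 counts limit precision for Cdkn1c, at 18 to 22 counts per myoblast library.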

Additional observations from a re-analysis of the deposited data

Results flagged for a closer look

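The difference between KO-labelled and WT cells changed between stages for 2 members in a test of that change itself, made for 10 members in 3 pairs of stages (30 tests, edgeR's quasi-likelihood test, adjusted over all genes). These 2 of 10 members from myoblasts to differentiated cells, and 1 of 10 from myoblasts to fused cells, are near the 19.1% and 10.3% of all genes called, and the counts are read as no result about the members. Cdkn2b was 1.22 times lower in KO-labelled myoblasts and 1.22 times higher in KO-labelled differentiated cells, a change of 0.58 on the log2 scale (adjusted p = 0.000676). From myoblasts to fused cells its label difference changed by 0.48 (adjusted p = 0.00387). Cdkn1a was 1.11 times lower in KO-labelled myoblasts and had a log2 difference of 0.10 in differentiated cells, a change of 0.26 (adjusted p = 0.00616). Without KO-labelled differentiated replicate 2 this last value was 0.20 (adjusted p = 0.0713). No library of the fused groups, the only groups of 4, stood apart from the others for any member (20 groups examined).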

How the results depend on the processing

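Of 3240 recomputed member values, 3119 kept their direction and side of the threshold, 52 lost and 23 gained a call, 7 reversed and 39 changed sign without a call. With library size alone, which put the median of all genes at -0.231 in the first and -0.332 in the whole WT course (-0.311 and -0.353 in KO-labelled cells), Cdkn1b in differentiated over myoblasts became -0.076 (WT) and -0.061 (KO-labelled), Cdkn2d in WT -0.011, and Cdkn2c in fused over myoblasts -0.24 (WT) and -0.175 (KO-labelled). With the effective-length offset, Cdkn2c in differentiated over myoblasts became 0.07 (WT) and 0.20 (KO-labelled); its shorter transcript replaces a longer one. Members called between labels numbered 0 in place of 3 in myoblasts with that offset, and in fused cells 0 with the offset and 1 with library size alone, the compared groups only or DESeq2, in place of 2. The change of the label difference from differentiated to fused cells gave 1 call in place of 0 with library size alone, no filter, the replicate block or DESeq2. From myoblasts to fused cells it gave 2 in place of 1 with DESeq2 size factors, library size alone or DESeq2. Leaving out 1 library gave 0 to 3, 0 to 3 and 0 to 2 calls between labels in the 3 stages, 9 to 10, 9 and 9 between WT stages, 9, 8 and 9 to 10 between KO-labelled stages, and 1 to 3, 0 to 1 and 1 to 2 for the changes of the label difference. Over all genes called between labels in myoblasts, 42.1% were higher in KO-labelled cells, against 29.3% with DESeq2 size factors, 27.5% by DESeq2's test and 19% with the offset (112 higher and 477 lower in place of 735 and 1012). In differentiated cells it was 43.9% and 27% with library size alone, and for WT differentiated over myoblasts 49.9% and 40.4% (KO-labelled 49.3% and 38.8%). Same-numbered libraries did not deviate together (r from -0.054 to 0.056 over 41 pairs). This cannot show whether a number stands for a shared animal or day, which the labels do not say. The replicate block gave 2, 3 and 2 calls between labels. Except where stated here or beside a result, the cause of a change was not tested.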

Other observations

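The split of counts between transcripts was not stable between replicates for Cdkn1c, Cdkn2d and Rbl2. Rbl2-201, for example, held from 44.1 to 100% of its gene's counts in single libraries. Transcript shares of these 3 genes were therefore not compared between stages. The Cdkn1b shares, which were compared, also varied between replicates. In WT myoblasts Cdkn1b-202 held 46.2 to 58.6% and Cdkn1b-201 22.9 to 36.6%. In WT differentiated cells Cdkn1b-202 held 36.9 to 40.9%, a separate range, and Cdkn1b-201 36.3 to 45.7%, which overlapped.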
